A study of Mus musculus with 6 samples.

Results

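The 9 genes Mttp, Lcat, Lipc, Pltp, Angptl4, Scarb1, Abca1, Abcg5 and Abcg8, whose products assemble lipoproteins, remodel them in plasma or export sterols, were followed in mouse liver. They were taken by symbol from a deposited table of 24034 genes, in which each symbol had 1 row. RNA had been sequenced from liver of C57BL/6 mice aged 25 weeks, with 3 libraries (HO) from animals labelled 3A/3A at Lncenc1, a long non-coding RNA gene, and 3 libraries (WT) from animals labelled wt/wt at that gene. The design text speaks of knockout mice, and with the genotype label HO was read as homozygous for the mutant allele. What the 3A allele changes, whether it comes from 1 founder and whether the animals were littermates, the sources used here do not say. The RNA of Lncenc1 was not analysed here, and the labels alone give the genotypes. They name no substrain of C57BL/6, and an effect of the mutation and one of genetic background cannot be told apart. Nothing states that the libraries of a group are separate animals, so the p-values speak only to the spread among these 6 samples, which may be technical.

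Hepatocytes load triglyceride onto apolipoprotein B and secrete it as very low density lipoprotein. Lipases, transfer proteins and an esterifying enzyme then reshape these particles and high density lipoprotein in plasma. Cholesterol returns to the liver through receptors, leaves hepatocytes onto apolipoprotein A-I at the sinusoidal face, or is pumped into bile. Several of these genes are textbook targets of the oxysterol receptor LXR or the fatty acid receptor PPARA.

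Expression was given as FPKM, a fragment count scaled by gene length and by library size. The FPKM sums of the libraries were alike, at 495570 to 518218 in HO and 499151 to 506986 in WT. Since FPKM is already scaled by library size, such sums do not measure depth. Relative depth, read from the spacing of low values, was 19900000 to 24600000 read equivalents in HO and 19100000 to 23500000 in WT. The median FPKM was lower in HO, at 0.742 to 0.788 against 0.853 to 0.879 in WT. On the second principal component of log2 values, which held 19.7% of the variance, HO replicate 1 lay at 33.5 and the other libraries between -17.2 and -1.2. Hepatocyte markers were present in every library, with Alb at 25339 to 29603 FPKM in HO and 31203 to 33315 in WT. Of 10 such markers 9 were found by symbol, since the symbol Tf was not among the deposited gene names. These 9 had 5 positive and 4 negative changes and a median log2 change of 0.03. The HO libraries lay above the WT libraries for 3 and below for 4, against 6.42% and 21.4% of all tested genes. Of the 9 markers Cps1, a urea cycle enzyme (log2 change 0.86, limma adjusted p = 0.0422), and Ahsg, a plasma protein (0.52, limma adjusted p = 0.0496), were called higher in HO, and none was called lower. The call of Cps1 was lost without HO replicate 2, HO replicate 3, WT replicate 1 or WT replicate 2, and that of Ahsg whichever library was left out (limma adjusted p up to 0.166 and 0.203). Neither call held with no filter (limma adjusted p = 0.0867 and 0.133) or with eBayes without a trend. That of Ahsg was also lost with a pseudocount of 0.1 or quantile normalization.

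All 9 genes passed the filter of a mean of 0.5 FPKM over the 6 libraries, and none was called at an adjusted p of 0.05 between HO and WT (limma on log2(FPKM + 0.5), Benjamini-Hochberg over 13250 genes). Among all genes tested 1.14% were called, 0.325% as higher in HO and 0.815% as lower. Before adjustment 3 of the 9 had a p under 0.05 (Pltp, Abca1 and Scarb1), against 21.5% of all tested genes. The 3 HO libraries lay above the 3 WT libraries for Scarb1 and Angptl4, against 6.42% of all tested genes, and below them for Pltp, against 21.4%. For the other 6 genes the groups overlapped. The fitted change was positive for 7 genes and negative for Pltp and Lcat, while among all tested genes 35.4% were positive and 64.6% negative. That background applies to every count of signs given here for a list. The median change of the 9 genes was 0.12 on the log2 scale, beside -0.09 for all tested genes. The median size of the change, sign ignored, was 0.29 for the 9 genes and 0.19 for all tested genes.

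**Figure D1:**
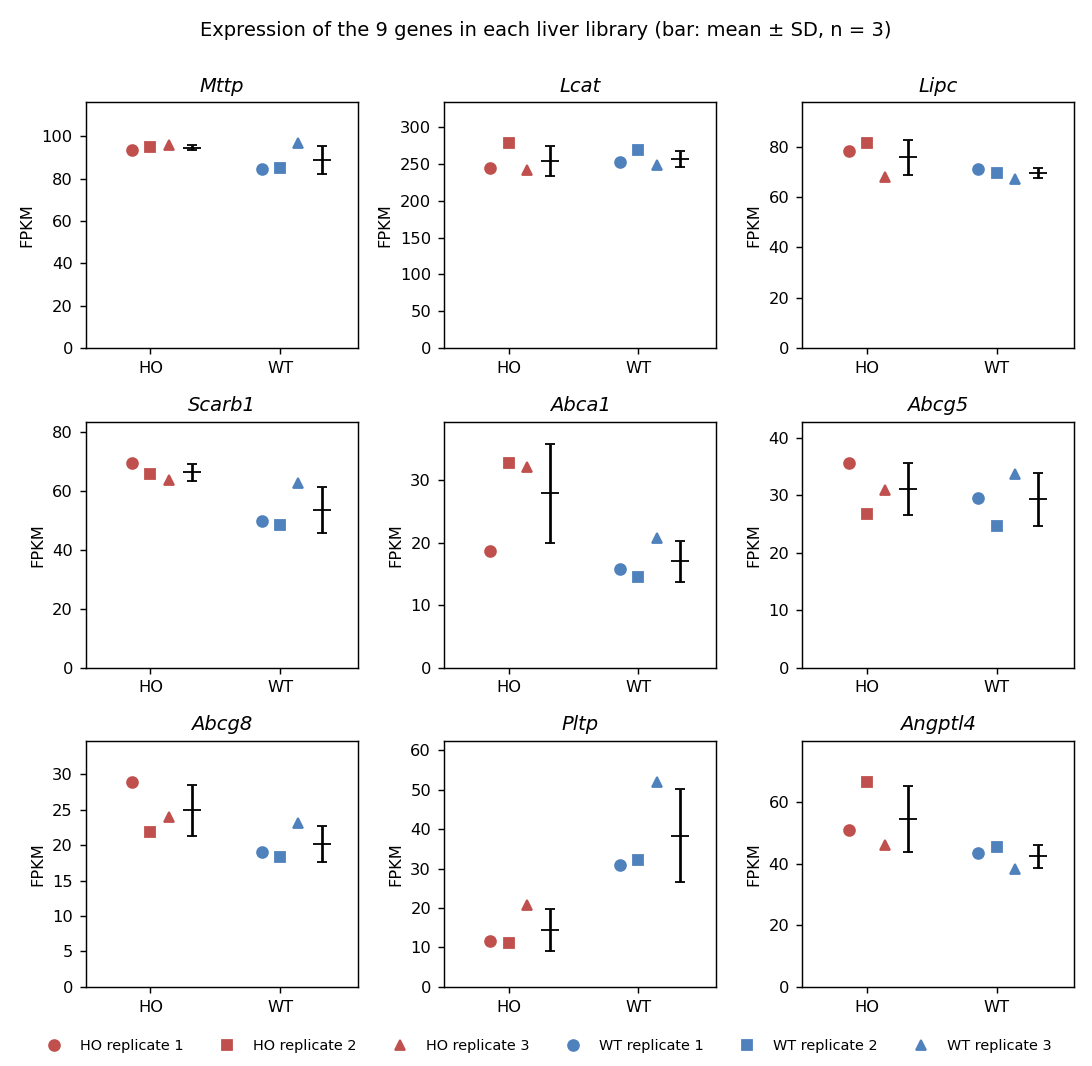
FPKM (vertical axes, starting at 0) of each of the 9 genes in the 3 HO libraries (red, left) and the 3 WT libraries (blue, right), with the mean ± SD beside them. Pltp sits at 11.1 to 20.7 FPKM in HO and 30.8 to 51.9 in WT, while Mttp and Lcat overlap closely.

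In level, which FPKM makes comparable between genes since it is per length, the 9 genes spanned about an order of magnitude. Lcat was highest, at 241.0 to 277.8 FPKM over the 6 libraries. Mttp followed at 84.5 to 96.6 and Lipc at 67.3 to 81.3 FPKM, and neither range overlapped the one above it. Scarb1 (48.2 to 69.5 FPKM) overlapped Lipc, and Angptl4 (38.3 to 66.5 FPKM) overlapped Scarb1. Abcg5 lay below these at 24.6 to 35.7 FPKM. The ranges of Abcg5, Pltp (11.1 to 51.9), Abcg8 (18.3 to 28.9) and Abca1 (14.5 to 32.8) overlapped one another over the 6 libraries. Within libraries their order differed between the groups. Pltp was the lowest of the 9 in each HO library, and above Abcg5, Abcg8 and Abca1 in each WT library. Abca1 was the lowest of the 9 in each WT library, and in HO replicates 2 and 3 it stood above Abcg5 and Abcg8. The highest value was 1.03 times the lowest among HO libraries for Mttp, but 1.75 times for Abca1 and 1.87 times for Pltp. WT replicate 3 was the highest WT library for 6 of the 9 genes: Mttp, Scarb1, Abca1, Abcg5, Abcg8 and Pltp.

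Mttp encodes the transfer protein that loads lipid onto nascent apolipoprotein B in the endoplasmic reticulum. It lies on chromosome 3 from 138089854 to 138144968 (mm10, minus strand). Its level was 93.4, 94.8 and 95.8 FPKM in HO replicates 1 to 3, against 84.5, 85.2 and 96.6 FPKM in WT replicates 1 to 3. All HO values lay inside the WT range. The log2 change was 0.09 ± 0.08 (SE; 95% interval -0.10 to 0.29, limma adjusted p = 0.556). Mttp shares 457 exonic bases with Trmt10a on the opposite strand, or 7.4% of its exonic length, but Trmt10a stood only at 1.64 to 2.40 FPKM in HO and 1.39 to 2.88 in WT.

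Of 16 other genes of lipoprotein assembly and secretion, none was called, and 5 had a positive and 11 a negative change, with a median of -0.08 (0.02 with median-of-ratios scaling). The lowest p values were those of Fitm1 and Tm6sf2. Fitm1, which takes part in lipid droplet formation, was at 42.2, 26.0 and 36.6 FPKM in HO and 66.7, 78.2 and 60.7 in WT (log2 change -0.98 ± 0.19, limma adjusted p = 0.0590). Tm6sf2, needed to lipidate very low density lipoprotein, was at 9.78, 11.6 and 10.03 FPKM in HO and 15.5, 14.3 and 16.2 in WT (log2 change -0.53 ± 0.10, limma adjusted p = 0.0635). The HO libraries lay below the WT libraries for both, without passing the threshold.

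Among the plasma remodelling genes, Lcat and Lipc overlapped between HO and WT. Lcat, the enzyme that esterifies cholesterol on high density lipoprotein, lies on chromosome 8 from 105939551 to 105943382. It stood at 243.7, 277.8 and 241.0 FPKM in HO and 251.9, 268.5 and 248.3 in WT. Its log2 change was -0.01 ± 0.09 (SE; 95% interval -0.22 to 0.20, limma adjusted p = 0.947), and it was slightly positive with either scaling alternative (0.09 and 0.07). Lipc, the hepatic lipase of the liver sinusoids, is encoded on chromosome 9 from 70798128 to 70952226. It had 78.2, 81.3 and 68.0 FPKM in HO and 71.3, 69.6 and 67.3 in WT. Of its HO libraries 2 lay above the WT range and replicate 3 inside it, with a log2 change of 0.12 ± 0.09 (95% interval -0.10 to 0.34, limma adjusted p = 0.482).

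Pltp, the phospholipid transfer protein that moves surface lipid from triglyceride-rich particles to high density lipoprotein, showed the largest difference of the 9. Its level was 11.5, 11.1 and 20.7 FPKM in HO replicates 1 to 3, against 30.8, 32.3 and 51.9 FPKM in WT replicates 1 to 3. Every HO library lay below every WT library, and within each group replicate 3 was the highest. The means were 14.4 ± 5.42 FPKM in HO and 38.3 ± 11.8 in WT (SD, n = 3 each), and HO had 0.380 times the WT level on the log2(FPKM + 0.5) scale. The log2 change of -1.40 ± 0.29 (SE; 95% interval -2.07 to -0.72) was larger in size than that of 99.0% of tested genes, but did not pass (limma adjusted p = 0.0703, unadjusted p = 0.00170). When each library was left out in turn the log2 change ranged from -1.68 to -1.16 and the adjusted p from 0.0624 to 0.187.

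Pltp lies on chromosome 2 from 164839518 to 164857711 (mm10, minus strand). It shares 495 exonic bases, 19.3% of its exonic length, with Ctsa, a lysosomal carboxypeptidase gene on the opposite strand. Ctsa stood at 45.7, 43.5 and 40.4 FPKM in HO and 53.3, 46.1 and 49.4 in WT (log2 change -0.20 ± 0.09, limma adjusted p = 0.275). The libraries were made with a directional kit, but the sources used here do not say if counting used strand, so reads of the shared bases cannot be assigned with certainty. Macrophages and adipocytes also make Pltp. Markers of Kupffer cells and macrophages summed to 152.0 to 195.0 FPKM in HO and 168.0 to 299.7 in WT, with negative changes in 13 of 13 and none called, the lowest p values being those of Vsig4 (log2 change -0.58) and Cd68 (-0.47). Stellate cell markers summed to 106.2 to 116.4 FPKM in HO and 143.2 to 188.2 in WT, with 9 of 10 negative and none called, the lowest p values being those of Dcn (log2 change -0.49) and Col3a1 (-1.14). Of 6 measured adipocyte markers Adipoq, Plin1 and Adig were listed at 0 in all 6 libraries. The sum of the 6 was 21.6 to 37.1 FPKM in HO and 85.7 to 99.2 in WT, carried by Cfd (log2 change -3.47), Cidec (-1.01) and Plin4, none of them called. The part of these cells in the lower Pltp value was not tested. In these bulk samples fewer cells of a type and less RNA per cell cannot be told apart.

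The promoter of Pltp is shown because this gene differed most, from 250 bases before to 50 after its start (RefSeq, GRCm38.p6, chr2:164857659-164857958, read on the minus strand, 5′ to 3′). Capitals mark the motifs found among those searched.

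Pltp: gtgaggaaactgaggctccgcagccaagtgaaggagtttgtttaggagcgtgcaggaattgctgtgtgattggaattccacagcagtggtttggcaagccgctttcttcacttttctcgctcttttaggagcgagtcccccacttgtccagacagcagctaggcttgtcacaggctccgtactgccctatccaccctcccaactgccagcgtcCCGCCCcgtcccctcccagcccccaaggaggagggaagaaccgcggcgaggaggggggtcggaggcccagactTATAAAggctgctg

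The motifs searched were the nuclear receptor half-site AGGTCA, direct repeats of it spaced by 4 bases (DR4, the type bound by LXR) or by 1 base (DR1), TCACNCCAC (a sterol regulatory element), CACGTG (an E-box), TATAAA and GGGCGG (a GC box), each on both strands. The direct repeats contain the half-site, and the other motifs did not overlap in the windows shown. The Pltp window held 1 GC box on the other strand at bases -37 to -32 and TATAAA at bases 37 to 42, counted from the start. A GC box was in 35.7% and TATAAA in 13.6% of the 32851 windows of the table. Exact direct repeats were rare, at 0.015% of windows for DR4 and 0.040% for DR1, and no window of the 9 genes held one. Windows were present for 7 of the 9 genes, all but Scarb1 and Angptl4. A match is a description of letters only.

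Angptl4, a secreted inhibitor of lipoprotein lipase and hepatic lipase and a textbook PPARA target, was higher in every HO library than in any WT library without passing the threshold. It is encoded on chromosome 17 from 33773750 to 33781830. Its level was 51.0, 66.5 and 46.0 FPKM in HO, against 43.6, 45.6 and 38.3 FPKM in WT. HO replicate 3 exceeded the highest WT value by less than 1 FPKM, so the separation was narrow. The log2 change was 0.34 ± 0.15 (SE; 95% interval -0.01 to 0.69, limma adjusted p = 0.239, unadjusted p = 0.0530).

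The other PPARA targets listed lay mostly on the other side of 0. Of 19 tested, 15 had a negative change and 4 a positive one, with a median log2 change of -0.48 beside -0.09 for all tested genes (-0.37 with median-of-ratios scaling). Acot3 alone was called, as lower. Before adjustment 11 lower genes and 1 higher gene had a limma p under 0.05, against 21.5% of all tested genes in either direction. Acot3, a peroxisomal acyl-CoA thioesterase, was at 0.292, 0.804 and 0.374 FPKM in HO and 5.44, 7.89 and 5.71 in WT (log2 change -2.81 ± 0.23, limma adjusted p = 0.0109, or 0.0572 without WT replicate 2). Its HO mean of 0.490 FPKM lay under the filter of 0.5 FPKM, so it passed the filter only through its WT values. Near the floor in HO, the size of its log2 change depended on the pseudocount, at -3.53 with 0.1 and -2.3 with 1. Array weights called 9 of the 19 as lower, but over all genes 692 as lower, against 108 in the main fit. Whether Angptl4 differed from the other targets was not tested.

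Angptl8, a feeding-induced member of the same protein family, was at 12.0, 60.6 and 11.7 FPKM in HO and 38.8, 91.8 and 50.4 in WT (log2 change -1.44 ± 0.64, limma adjusted p = 0.253). The groups overlapped, and replicate 2 was the highest library of each group. Angptl8 was named after its values were seen.

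Of 14 tested genes in the list of lipases and their regulators, 2 were called as lower in HO, Lipg and Lipa, and none as higher. The change was negative for 10 and positive for 4, with a median of -0.18. An unadjusted limma p under 0.05 was reached by 4 lower and 2 higher genes, against 21.5% of all tested genes in either direction. Lipg encodes endothelial lipase, which acts mainly on phospholipids of high density lipoprotein. It had 3.75, 4.35 and 4.86 FPKM in HO and 10.7, 13.2 and 9.41 in WT (log2 change -1.26 ± 0.15, limma adjusted p = 0.0272). Lipa, the lysosomal acid lipase that frees cholesterol from endocytosed particles, had 47.5, 41.1 and 47.2 FPKM in HO and 85.8, 84.6 and 73.0 in WT (log2 change -0.83 ± 0.10, limma adjusted p = 0.0284). For both genes the groups were well apart, with the highest HO value far under the lowest WT value. Both calls were lost when HO replicate 2, HO replicate 3, WT replicate 1 or WT replicate 2 was left out, with adjusted p up to 0.109 for Lipg and 0.128 for Lipa. That of Lipg was also lost with no filter. Lpl, the lipoprotein lipase of muscle and fat, was low in these livers, at 2.98, 1.997 and 1.84 FPKM in HO and 4.27, 2.89 and 3.55 in WT (limma adjusted p = 0.173).

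Scarb1, the receptor that takes up cholesteryl esters from high density lipoprotein, was higher in each HO library than in each WT library. It lies on chromosome 5 from 125277087 to 125341094. Its level was 69.5, 65.6 and 63.7 FPKM in HO replicates 1 to 3, against 49.8, 48.2 and 62.6 FPKM in WT replicates 1 to 3. The separation rested on a narrow gap, since WT replicate 3 came within about 1 FPKM of HO replicate 3. The log2 change was 0.31 ± 0.12 (SE; 95% interval 0.04 to 0.59, limma adjusted p = 0.183, unadjusted p = 0.02997). When each library was left out in turn it ranged from 0.24 without WT replicate 2 to 0.43 without WT replicate 3, with adjusted p from 0.0681 to 0.423 in limma.

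Of 12 tested lipoprotein uptake receptors and their regulators, 10 had a negative and 2 a positive change, with a median of -0.16 (-0.05 with median-of-ratios scaling), close to that of all tested genes. Cd36 and Vldlr were called as lower and none as higher. The scavenger receptor Cd36, of the same family as Scarb1, had 17.6, 21.2 and 19.6 FPKM in HO and 51.7, 46.0 and 48.8 in WT (log2 change -1.31 ± 0.10, limma adjusted p = 0.0109). It stayed called whichever library was left out. Vldlr, a receptor of triglyceride-rich particles, was at 0.327, 0.184 and 0.290 FPKM in HO and 1.10, 1.202 and 0.847 in WT (log2 change -1.01 ± 0.17, limma adjusted p = 0.0485), and with a pseudocount of 0.1 its log2 change was -1.65, against -0.69 with a pseudocount of 1, since it lies near the floor. Every HO value of Vldlr lay under 0.5 FPKM, so it passed the filter only through its WT values. With the filter at 1 FPKM it was not tested. Its call was lost with either scaling alternative, a pseudocount of 0.1 or no filter, and in 5 of the 6 fits that left out a library, all but that without WT replicate 3. Pdzk1, the scaffold that holds the Scarb1 protein at the hepatocyte surface, was at 26.8, 30.6 and 28.6 FPKM in HO and 30.9, 33.2 and 33.3 in WT (limma adjusted p = 0.293). Pdzk1 was chosen after its values were seen.

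**Figure D2:**
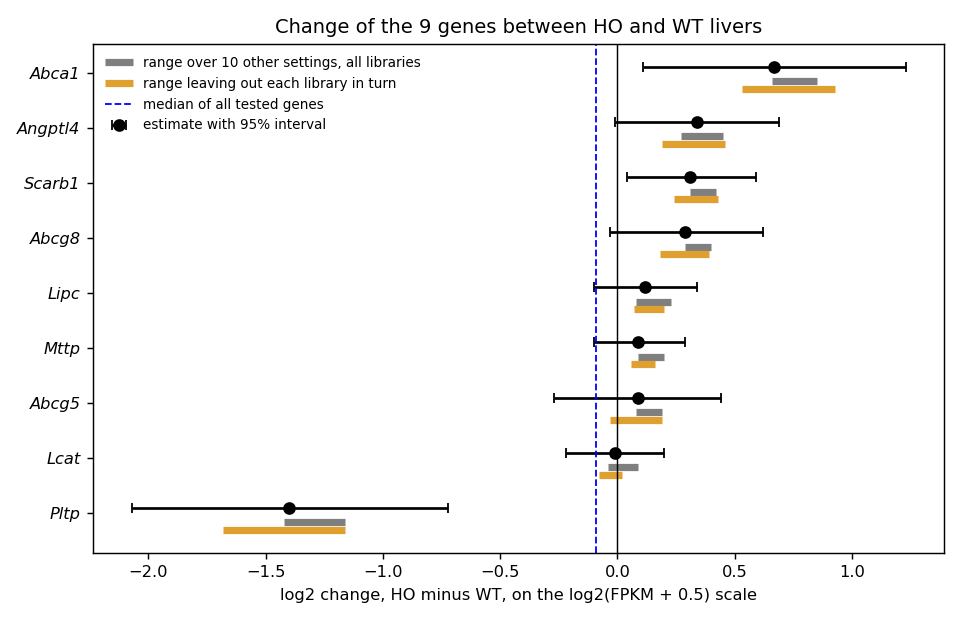
Log2 change, HO minus WT (horizontal axis), of each of the 9 genes with its 95% interval (black), the range over 10 other settings with all libraries (grey) and the range when each library was left out in turn (orange). The dashed line is the median of all tested genes, -0.09. The interval of Pltp, -2.07 to -0.72, lies left of the others, and that of Lcat is centred near 0.

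Sterol export showed its widest difference at Abca1, which passes cholesterol and phospholipid to lipid-poor apolipoprotein A-I and so starts high density lipoprotein. Abca1 is encoded on chromosome 4 from 53030787 to 53159895 (mm10, minus strand). Its level was 18.7, 32.8 and 32.1 FPKM in HO replicates 1 to 3, against 15.8, 14.5 and 20.7 FPKM in WT replicates 1 to 3. HO replicates 2 and 3 lay above every WT library, while HO replicate 1 lay inside the WT range. The means were 27.9 ± 7.94 FPKM in HO and 17.0 ± 3.27 in WT (SD, n = 3 each). The log2 change was 0.67 ± 0.24 (SE; 95% interval 0.11 to 1.23, limma adjusted p = 0.171, unadjusted p = 0.0251). With array weights, which called 249 higher and 692 lower genes over all, Abca1 passed the threshold (log2 change 0.85, limma adjusted p = 0.0489). It passed in no fit that left out a library, where the log2 change ranged from 0.53 without HO replicate 2 to 0.93 without HO replicate 1 and the adjusted p from 0.0539 to 0.386 in limma.

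HO replicates 2 and 3 also had the highest sums of acute phase genes, the plasma proteins and stress genes that hepatocytes raise in inflammation. Their summed level was 13380, 32310 and 29700 FPKM in HO replicates 1 to 3, against 11420, 9992 and 13020 FPKM in WT replicates 1 to 3. All 23 had a positive change, with a median of 0.95, and Socs3 and Saa4 were called. Both were above WT in HO replicate 1 as well. Socs3 was at 24.3, 11.4 and 18.4 FPKM in HO and 2.43, 1.97 and 3.68 in WT, highest in HO replicate 1, and Saa4 was at 412.5, 572.1 and 517.5 FPKM in HO and 133.1, 141.9 and 240.3 in WT. Both calls were lost with no filter (limma adjusted p = 0.0513 and 0.0763), and that of Saa4 with eBayes without a trend. Both calls were lost without HO replicate 3, WT replicate 1 or WT replicate 2, and that of Saa4 also without HO replicate 2 (limma adjusted p up to 0.109 for Socs3 and 0.151 for Saa4). Whether that state of the livers bears on Abca1 was not tested. Kupffer cell and macrophage markers, whose cells also express Abca1, summed to 195.0, 152.0 and 184.5 FPKM in HO replicates 1 to 3, and to 299.7, 168.0 and 184.2 FPKM in WT replicates 1 to 3. Their part in the Abca1 values was not tested.

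The Abca1 promoter is shown because the gene is a well-studied LXR target (RefSeq, GRCm38.p6, chr4:53159846-53160145, read on the minus strand, 5′ to 3′, capitals marking the motifs found).

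Abca1: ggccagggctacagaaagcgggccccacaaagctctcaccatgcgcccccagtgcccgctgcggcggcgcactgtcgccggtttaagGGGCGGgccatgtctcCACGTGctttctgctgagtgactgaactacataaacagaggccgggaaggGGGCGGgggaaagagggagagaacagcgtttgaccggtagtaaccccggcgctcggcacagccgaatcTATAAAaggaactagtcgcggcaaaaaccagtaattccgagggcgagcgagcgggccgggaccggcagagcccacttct

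It held a GC box at bases -163 to -158 and another at -97 to -92, an E-box CACGTG at -147 to -142 and TATAAA at -29 to -24. The E-box was present in 7.2% of all windows. The exact half-site AGGTCA, present in 16.3% of all windows, was not among its letters. The search allowed no mismatch, so it cannot tell whether the window holds an inexact site of the type bound by LXR.

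Abca1 lay on the other side of 0 from most other listed LXR targets, a list that held none of the 9 genes. Among the 9, 7 were positive, with Abcg5 (log2 change 0.09) and Abcg8 (0.29) among them. Pltp (-1.40) and Lcat (-0.01) were negative. Of 12 listed LXR targets tested, 10 had a negative and 2 a positive change, with a median log2 change of -0.47 and none called. An unadjusted limma p under 0.05 was reached by 6 lower genes and 1 higher gene, against 21.5% of all tested genes in either direction. A single gene passed as lower with a pseudocount of 1, a filter at 1 FPKM or robust eBayes. With array weights 2 passed as lower, where 692 genes did so over all. The lowest p values were those of Apoc2 and Fasn. Apoc2, the cofactor of lipoprotein lipase, was at 31.4, 40.6 and 35.9 FPKM in HO and 101.8, 60.7 and 101.4 in WT (log2 change -1.25 ± 0.21, limma adjusted p = 0.0503). Fasn, the fatty acid synthase, was at 35.1, 39.3 and 46.3 FPKM in HO and 82.0, 63.1 and 96.9 in WT (log2 change -0.98 ± 0.17, limma adjusted p = 0.0526). Abcg1, the partner of Abca1 in efflux to mature high density lipoprotein, was low, at 0.855, 0.748 and 0.802 FPKM in HO and 0.955, 0.929 and 0.871 in WT (limma adjusted p = 0.629), and was named after its values were seen. The receptor gene Nr1h3, encoding LXR alpha, had 48.3, 46.4 and 44.8 FPKM in HO and 37.8, 41.5 and 47.4 in WT (limma adjusted p = 0.467).

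Apolipoprotein A-I, the acceptor of Abca1, and the other apolipoproteins gave no call among 13 tested, with 9 negative and 4 positive changes and a median of -0.20. The HO libraries lay above the WT libraries without overlap for 3 of them and below for 5, against 6.42% and 21.4% of all tested genes. Among the 5 was Apoa2, another protein of high density lipoprotein, at 9539, 8155 and 8357 FPKM in HO and 13128, 14171 and 11461 in WT. The acceptor gene Apoa1 had 8465, 8630 and 9202 FPKM in HO and 6893, 7385 and 8176 in WT (log2 change 0.23 ± 0.11, limma adjusted p = 0.292). Apom, which high density lipoprotein carries, was at 118.4, 119.7 and 112.4 FPKM in HO and 66.6, 67.5 and 92.7 in WT (log2 change 0.64 ± 0.14, limma adjusted p = 0.0750). Apoa1 and Apom were among the 3 with HO above WT. Apob, the structural protein that Mttp loads, had 230.9, 416.4 and 470.4 FPKM in HO and 395.7, 369.1 and 410.0 in WT (limma adjusted p = 0.794), with HO replicate 1 lowest of all. Apoa1 and Apob were named for their roles as partners of Abca1 and Mttp, and Apoa2 after its values were seen.

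Abcg5 and Abcg8 encode the paired subunits of the transporter that pumps cholesterol and plant sterols into bile. They lie head to head on chromosome 17, Abcg5 from 84658234 to 84683011 on the minus strand and Abcg8 from 84676302 to 84700333 on the plus strand, a span that includes an upstream start inside Abcg5. The Abcg8 start nearest to that of Abcg5, at 84683121, is separated from it by 109 bases, so the promoter windows at these starts share 209 of 300 bases. The Abcg8 window is shown because both genes start in it (RefSeq, GRCm38.p6, chr17:84682871-84683170, plus strand, 5′ to 3′). Capitals mark the stretch between the 2 starts, and Abcg5 is read leftwards from it.

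Abcg5 and Abcg8: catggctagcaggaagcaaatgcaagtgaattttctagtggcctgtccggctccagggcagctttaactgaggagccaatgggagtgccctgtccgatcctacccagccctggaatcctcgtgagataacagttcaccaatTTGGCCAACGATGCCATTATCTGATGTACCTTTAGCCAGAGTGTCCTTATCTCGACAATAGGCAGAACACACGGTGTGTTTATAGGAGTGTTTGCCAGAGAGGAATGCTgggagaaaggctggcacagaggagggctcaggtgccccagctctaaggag

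The stretch between the starts had a GC content of 45.9%. It held 1 of the motifs searched, TATAAA on the minus strand, at bases -31 to -26 from the Abcg8 start.

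Abcg5 had 35.7, 26.7 and 30.9 FPKM in HO replicates 1 to 3, against 29.5, 24.6 and 33.8 FPKM in WT replicates 1 to 3. The groups overlapped, and the log2 change was 0.09 ± 0.15 (SE; 95% interval -0.27 to 0.44, limma adjusted p = 0.781). Abcg8 had 28.9, 21.8 and 24.0 FPKM in HO, against 19.1, 18.3 and 23.1 FPKM in WT. Of its HO libraries 2 lay above the WT range, with a log2 change of 0.29 ± 0.14 (95% interval -0.03 to 0.62, limma adjusted p = 0.274). In both genes replicate 1 was highest and replicate 2 lowest among HO libraries, and replicate 3 highest and replicate 2 lowest among WT libraries. The 2 genes thus ranked the libraries of each group in the same order.

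Abcg8 was below Abcg5 in all 6 libraries, and the gap was narrower in HO. The ratio of their FPKM values, Abcg8 over Abcg5, was 0.810, 0.816 and 0.776 in HO and 0.647, 0.745 and 0.684 in WT. On the log2(FPKM + 0.5) scale the difference was -0.32 ± 0.04 in HO and -0.52 ± 0.10 in WT (SD, n = 3 each). The groups did not overlap, and the difference between them of 0.21 gave an exact two-sided permutation p of 0.10, the smallest that 3 against 3 libraries allow. The 2 genes share 82 exonic bases on opposite strands, 3.0% of the exonic length of Abcg5 and 2.2% of that of Abcg8.

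**Figure D3:**
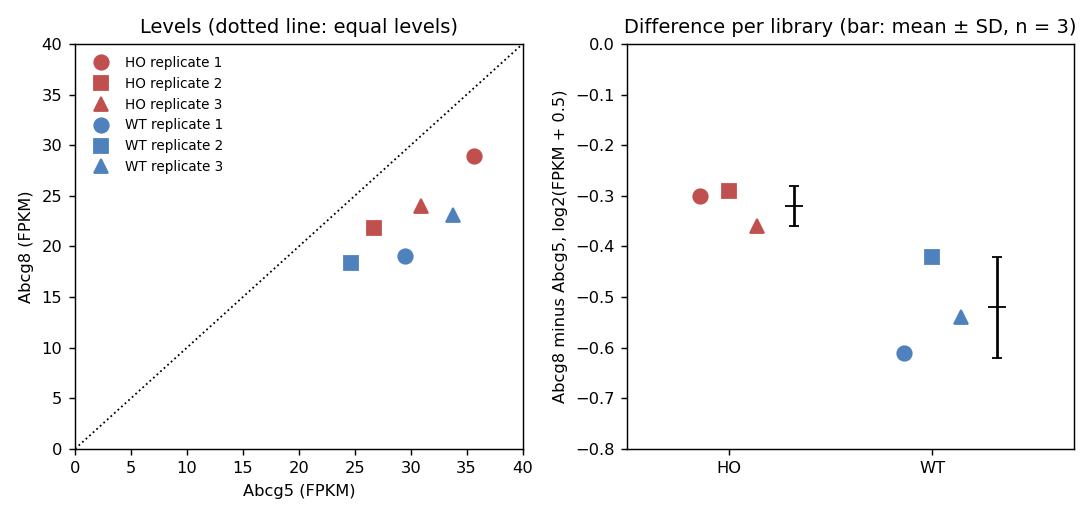
Left, Abcg8 against Abcg5 in FPKM for each library (HO red, WT blue), with a dotted line of equal levels. Right, Abcg8 minus Abcg5 on the log2(FPKM + 0.5) scale per library, HO left of WT, with mean ± SD; the HO values lie between -0.36 and -0.29 and the WT values between -0.61 and -0.42.

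Other genes of sterol handling gave no call. Of 18 tested for intracellular sterol handling and other sterol efflux, none was called, with 13 negative and 5 positive changes and a median of -0.04 (0.04 with median-of-ratios scaling). Soat2, which esterifies cholesterol in hepatocytes, had 14.2, 16.4 and 14.4 FPKM in HO and 18.0, 19.5 and 17.9 in WT (log2 change -0.29 ± 0.10, limma adjusted p = 0.153). Soat1, its counterpart in macrophages, had 0.496, 1.00 and 0.572 FPKM in HO and 1.68, 0.909 and 1.41 in WT (limma adjusted p = 0.186). The 20 sterol and fatty acid sensing receptors and cofactors had a median of -0.02 (0.08 with median-of-ratios scaling), with 10 changes of each sign and none called. Pparg, the fat-storage receptor of adipocytes and steatotic liver, was at 3.20, 2.66 and 4.68 FPKM in HO and 8.58, 7.19 and 5.52 in WT (log2 change -0.93 ± 0.22, limma adjusted p = 0.0893). The coactivator Ppargc1b was at 2.52, 1.63 and 2.49 FPKM in HO and 1.19, 1.27 and 1.34 in WT (log2 change 0.60 ± 0.17, limma adjusted p = 0.115).

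**Figure D4:**
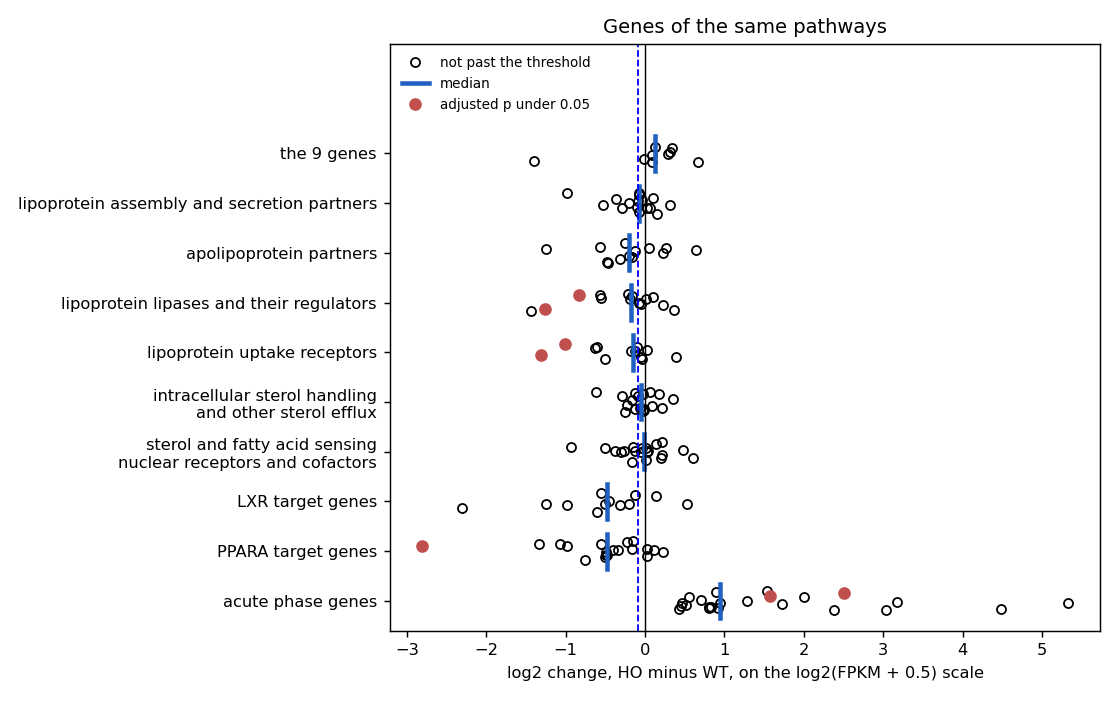
Log2 change, HO minus WT (horizontal axis), of the 9 genes (top row) and of each gene in 9 related lists. Filled red points passed the adjusted threshold, blue bars are medians and the dashed line is the median of all tested genes (-0.09). The medians run from -0.48 for PPARA targets to 0.95 for acute phase genes, with 0.12 for the 9 genes.

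For the 3 genes whose groups did not overlap, the most similar of 11561 other genes, all averaging at least 1 FPKM, were found by the root mean square difference between log2 profiles over the 6 libraries, each centred on its own mean. Nearest to Pltp was Acat2, a thiolase that feeds sterol synthesis, at 15.7, 15.2 and 33.0 FPKM in HO and 49.7, 37.3 and 51.8 in WT. Its distance was 0.241 on the log2 scale, against a spread of 0.79 for Pltp itself. The long intergenic RNA genes Gm32468 and Gm45941 followed at 0.290 and 0.291. Nearest to Scarb1 were the sodium channel subunit Scnn1a (0.038), coagulation factor F7 (0.038) and Cmtm6 (0.045), against a spread of 0.20 for Scarb1. F7 had 51.1, 47.4 and 49.5 FPKM in HO and 35.7, 35.2 and 46.9 in WT, and so shared the high value of WT replicate 3. Nearest to Angptl4 were the mitochondrial carrier Slc25a34 (0.067), Lrfn4 (0.076) and the purine enzyme Pnp (0.083), against a spread of 0.24 for Angptl4. Pnp has a close copy, Pnp2, so its reads may be split. Slc25a34 had 3.57, 4.67 and 3.27 FPKM in HO and 2.62, 2.99 and 2.66 in WT. Profiles over 6 libraries of 2 groups share the group difference, so such likeness is a description.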

How the data were processed

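FPKM values per gene and library were computed and deposited by the authors, with replicates not pooled. Per the labels' protocols, RNA was taken from flash-frozen liver with Trizol and made into directional Illumina libraries from total RNA. Named without version or role in the submitters' processing notes are StringTie, HTSeq, HISAT2, DESeq2 and the build mm10, and the tool that made the FPKM is not stated there. FPKM is relative to all other genes of a library, so abundant genes that change shift the rest. Only 32.8% to 34.9% of values under 10 read equivalents were whole within 0.02 reads, so counts were not recovered and no count model was used.

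Columns were matched to samples by group and replicate number. GENCODE mouse M21 (mm10) held all 24034 identifiers and gave positions and exonic lengths. The 13250 genes averaging at least 0.5 FPKM were fitted as log2(FPKM + 0.5) with limma 3.58.1 in R 4.3.3, 2 groups, eBayes with a trend, two-sided, Benjamini-Hochberg over all. The fit was tested on simulated data. The 9 genes and all lists were chosen with earlier results of these data known, as were the tests and the naming rule. That rule named all 9 genes, every called gene of a list or else its 2 lowest p values, and the 3 nearest profiles of members without overlap. Genes outside it were named for their role as partners of the 9 or after their values were seen. Markers of endothelial, biliary and lymphoid cells were read too, with 10, 5 and 1 tested and none called. By the same rule these name Fcgr2b (log2 change -0.45) and Tek (-0.35), Spp1 (-0.25) and Tspan8 (-0.69), and Nkg7 (0.22). Python 3.11.15, scipy 1.17.1 and matplotlib 3.10.9 were used. A planned comparison of protein sequences was not made.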

Additional observations from a re-analysis of the deposited data

How the results depend on the processing

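No member was called in 14 of the 16 alternatives. Array weights called 1 as higher (Abca1) and the replicate block called 1 as lower (Pltp, limma adjusted p = 0.0359), over all genes 249 higher and 692 lower with array weights and 10 higher and 15 lower with the block. The replicate numbers did not pair the libraries: deviations from group means correlated at 0.07, -0.03 and 0.01 between libraries of the same number. Against 43 higher and 108 lower genes in all, median-of-ratios scaling gave 67 and 66, no filter 7 and 33, eBayes without a trend 18 and 59, and a pseudocount of 0.1 gave 23 higher. Leaving out each library gave 2 to 91 higher and 4 to 168 lower genes over all. The median change of the 9 genes was 0.23 under each of the scaling alternatives (median-of-ratios and quantile), and 0.10 to 0.20 when a library was left out. The sign of Lcat turned positive with median-of-ratios scaling (0.09), quantile normalization (0.07) and without HO replicate 1 (0.01), HO replicate 3 (0.02) or WT replicate 2 (0.02; lowest -0.08 without HO replicate 2), and that of Abcg5 turned negative without HO replicate 1 (-0.02) or WT replicate 2 (-0.03; highest 0.19 without HO replicate 2). The other 7 genes kept their sign in all 16. The difference between Abcg8 and Abcg5 stayed between 0.16 and 0.26. The cause of these changes was not tested. Among called list genes, Cd36, Acot3 and Socs3 were also called with the replicate block, and Lipg, Lipa, Vldlr, Saa4, Cps1 and Ahsg were not.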
